A study of Mus musculus with 2 samples.

Results

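Gpr83, Swap70, Ecm1, Sdc4, Lad1, Ppm1l, Arhgap20 and Evx1 are 8 of the 41592 genes in the deposited expression table. They were taken because their transcript level in Thy1.1+ YFP+ cells was 2-fold or more of that in Thy1.1- YFP+ cells and because they belong to no larger gene family examined in this series, so they were chosen by the measured FPKM of both libraries, and the size of that difference is a description and was not tested. The libraries came from CD4+ T cells of the spleen and lymph nodes of C57BL/6 mice that were 6 to 8 weeks old. All cells came from Foxp3 ΔCNS1-Cre-R26-YFP mice, in which Cre is driven by Foxp3 regulatory sequence without the conserved noncoding element CNS1 and a YFP reporter sits at the Rosa26 locus, so that YFP marks a cell in which Cre has acted, and its progeny. Both sorted populations were YFP+, and they differed in staining for Thy1.1, 1 being Thy1.1+ and the other Thy1.1-. The labels do not say how many mice went into a sort or what carries Thy1.1, and the series design gives the same marker pair to both thymus-derived regulatory T (Treg) cells and exFoxp3 precursor cells, so the populations are named by their markers. With 1 library in each population there are no replicates, and no p-value is given. Intervals in brackets are at 95% and cover counting error only.

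The genes do different work and share no pathway in the textbook sense. Gpr83 encodes a G protein-coupled receptor long known as enriched in Treg cells. Swap70 encodes a guanine nucleotide exchange factor, which loads the small GTPase Rac with GTP and binds actin, and Arhgap20 encodes a GTPase-activating protein, which returns a small GTPase to its inactive form. Ecm1 is a secreted matrix glycoprotein, Sdc4 the cell surface heparan sulfate proteoglycan syndecan-4, and Lad1 the anchoring filament protein ladinin of basement membranes. Ppm1l is a protein phosphatase of the PP2C family that acts on stress kinases, and Evx1 a homeobox transcription factor of the posterior embryo and spinal cord that lies at the end of the HoxA cluster.

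Sequence just before the annotated start site differed widely between these genes. A RefSeq promoter of 300 bases, from 250 before to 50 after the start on GRCm38.p6, was found for 7 of the 8, and the 250 bases upstream of the start are printed 5′ to 3′ on the gene's strand for 3 of them. Ecm1 is shown as the CpG-poor promoter with a TATA box, Arhgap20 as the CpG-rich extreme and Swap70 as the promoter with a forkhead match. The Ecm1 stretch lies at chr3:95739570-95739819 (minus strand), that of Swap70 at chr7:110221453-110221702 (plus strand) and that of Arhgap20 at chr9:51765101-51765350 (plus strand). Capitals mark matches to the motifs searched. In Ecm1 they are, from left to right, the AP-1 motif and the TATA box. In Swap70 they are the Runx motif read on the other strand, the forkhead motif, and the Krüppel-like motif read on the other strand. Arhgap20 holds no match.
Ecm1: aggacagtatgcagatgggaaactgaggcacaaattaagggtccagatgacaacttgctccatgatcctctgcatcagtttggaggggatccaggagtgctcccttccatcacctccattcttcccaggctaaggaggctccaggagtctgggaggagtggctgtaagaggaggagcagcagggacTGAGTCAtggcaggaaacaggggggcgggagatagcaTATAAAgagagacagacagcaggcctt
Swap70: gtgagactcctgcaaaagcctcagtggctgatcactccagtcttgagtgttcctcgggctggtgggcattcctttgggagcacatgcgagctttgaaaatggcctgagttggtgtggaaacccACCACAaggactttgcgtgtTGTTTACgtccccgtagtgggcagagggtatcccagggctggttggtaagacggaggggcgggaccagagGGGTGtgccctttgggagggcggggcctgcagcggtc
Arhgap20: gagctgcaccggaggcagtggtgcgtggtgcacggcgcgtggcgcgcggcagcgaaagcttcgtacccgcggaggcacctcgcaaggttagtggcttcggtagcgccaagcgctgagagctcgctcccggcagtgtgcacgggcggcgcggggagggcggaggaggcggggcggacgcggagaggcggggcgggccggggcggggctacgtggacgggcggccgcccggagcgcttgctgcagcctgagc

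The Ecm1 promoter held 2 CpG dinucleotides in its 300 bases, an observed over expected ratio of 0.0932, and Arhgap20 held 48, a ratio of 1.14. The other 5 promoters lay between these, from 0.526 in Swap70 to 0.775 in Gpr83, and 6 of the 7 lay under the median of 0.781 over the promoters of 8525 protein-coding genes with a mean level of at least 1. The median over all promoters was lower, at 0.389, and of the 7 only Ecm1 lay under it. Motifs were searched on both strands of the 300 bases. TGTTTAC, the forkhead motif, occurred in 1 of the 7 promoters and in 3.55% of all 27025. TGANTCA, the AP-1 motif, also occurred in 1 of the 7 and in 7.93% of all. TATAAA, the TATA box, occurred in Ecm1 and, across the annotated start, in Gpr83, against 14.2% of all promoters. CACCC, the Krüppel-like motif, occurred in 5 of the 7 and in 56.7% of all, and TGTGGT, the Runx motif, in 1 of the 7 and in 16.9% of all. GGAAAA, the NFAT motif, was in none of the 7 and in 23.6% of all, and the STAT and CREB motifs, in none of the 7, were in 8.47% and 1.88% of all. Over the 8525 genes, the shares were 2.51% for forkhead, 4.45% for AP-1, 6.36% for the TATA box, 62.4% for Krüppel-like and 12.2% for Runx. Those of NFAT, STAT and CREB were 20.5%, 6.92% and 3.46%. These are letter matches, and no binding was measured.

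The levels are FPKM values, that is, fragments scaled to the length of the gene and the size of the library. Different genes can be set side by side only with the gene lengths the authors used, and another length can change their order. Behind the FPKM values stand 18600581 counted reads in the Thy1.1+ and 18536339 in the Thy1.1- library, recovered from the deposited values. Where values are set against each other, the Thy1.1+ library comes first. Both libraries carried Treg and T cell transcripts. All 9 Treg markers and all 9 T cell markers were above a mean of 1 FPKM, with Foxp3 at 237 and 158 FPKM and Cd4 at 327 and 471 FPKM in the Thy1.1+ and Thy1.1- library. Of the Treg markers, 8 of 9 were higher in the Thy1.1+ library, and they summed to 3656 against 3129 FPKM. Over the 12820 genes with a mean of at least 1 FPKM, 44.9% were higher there. Il2ra, which encodes CD25, was past 2-fold at 205 against 98.8 FPKM. Ctla4, the most abundant, was lower at 1105 against 1156 FPKM. Nrp1, Ikzf2 and Izumo1r had ratios of only 1.01, 1.11 and 1.11. Over the pseudocounts and scalings tried, their lowest log2 differences were -0.24, -0.11 and -0.10. The T cell markers went the other way: 8 of 9 were lower in the Thy1.1+ library, none past 2-fold, and they summed to 3035 against 3749 FPKM. The B cell markers summed to 7.29 against 9.50 FPKM, with 7 of 9 lower. Only 2 of the 9 had a mean of at least 1 FPKM, and Fcer2a and Ebf1, counted as lower, had equal reads in both libraries. The CD8 T cell and natural killer cell markers summed to 8.19 against 9.22 FPKM, with 3 of 6 lower and Klrb1c past 2-fold at 0.445 against 2.08 FPKM. Myeloid and dendritic cell markers, mostly Cst3, summed to 61.6 against 78.4 FPKM, with 9 of 12 lower and Itgam, an integrin chain of myeloid cells, past 2-fold at 0.272 against 4.17 FPKM. Only 3 of the 12 had a mean of at least 1 FPKM, and Adgre1 and Csf1r, counted as lower, had equal reads. Plasma cell markers, mostly Xbp1, which T cells also express, summed to 171 against 160 FPKM, with 4 of 6 higher in the Thy1.1+ library and 2 lower. Only 3 of the 6 had a mean of at least 1 FPKM. Prdm1, which encodes Blimp-1, was past 2-fold lower at 6.62 against 15.01 FPKM. All 10 stromal and endothelial markers were lower in the Thy1.1+ library, and they summed to 64.8 against 88.0 FPKM, of which Pecam1 made up 63.5 and 84.8 FPKM. Only 2 of the 10 had a mean of at least 1 FPKM. The part of any marker list in the differences was not tested, and in a bulk library fewer cells that express a gene cannot be told apart from less RNA per cell.

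Ecm1 was by far the most abundant of the 8, and the order of levels was the same in both libraries. Ecm1 stood at 241 FPKM in Thy1.1+ cells (234 to 249) and at 97.5 FPKM in Thy1.1- cells (92.9 to 102). This placed it at percentile 97.1 and percentile 90.9 among the 12820 genes with a mean of at least 1 FPKM. Swap70 followed with 45.1 FPKM (43.0 to 47.4) in the Thy1.1+ and 20.6 FPKM (19.2 to 22.1) in the Thy1.1- library. Gpr83 stood at 28.6 FPKM (27.3 to 29.9) in the Thy1.1+ and 12.7 FPKM (11.9 to 13.6) in the Thy1.1- library. These 3 were separated from each other and from the rest by more than their counting intervals in both libraries.

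The next 3 were close together. Ppm1l stood at 22.0 FPKM in Thy1.1+ cells (20.8 to 23.1) and 7.96 FPKM in Thy1.1- cells (7.29 to 8.67). Sdc4 stood at 19.7 FPKM (18.2 to 21.4) and 7.39 FPKM (6.45 to 8.43) in the same order. Lad1 stood at 19.2 FPKM (17.7 to 20.9) and 6.17 FPKM (5.30 to 7.15). The counting intervals of Ppm1l and Sdc4 overlapped in both libraries, and so did those of Sdc4 and Lad1. Overlap of separate intervals does not show equal levels, and the differences between these genes were not tested. Arhgap20 stood at 17.2 FPKM in Thy1.1+ cells (16.2 to 18.3), where its interval overlapped that of Lad1, and at 4.32 FPKM in Thy1.1- cells (3.81 to 4.89), where it did not. Evx1 was lowest, at 10.9 FPKM in Thy1.1+ cells (9.84 to 12.01) and 3.72 FPKM in Thy1.1- cells (3.12 to 4.41), and its interval overlapped that of Arhgap20 only in the latter. For each of the 8 genes, the Thy1.1+ value lay above the Thy1.1- one with no overlap of their counting intervals. At these read numbers this follows from choosing the genes at 2-fold or more, and it is a description.

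**Figure D1:**
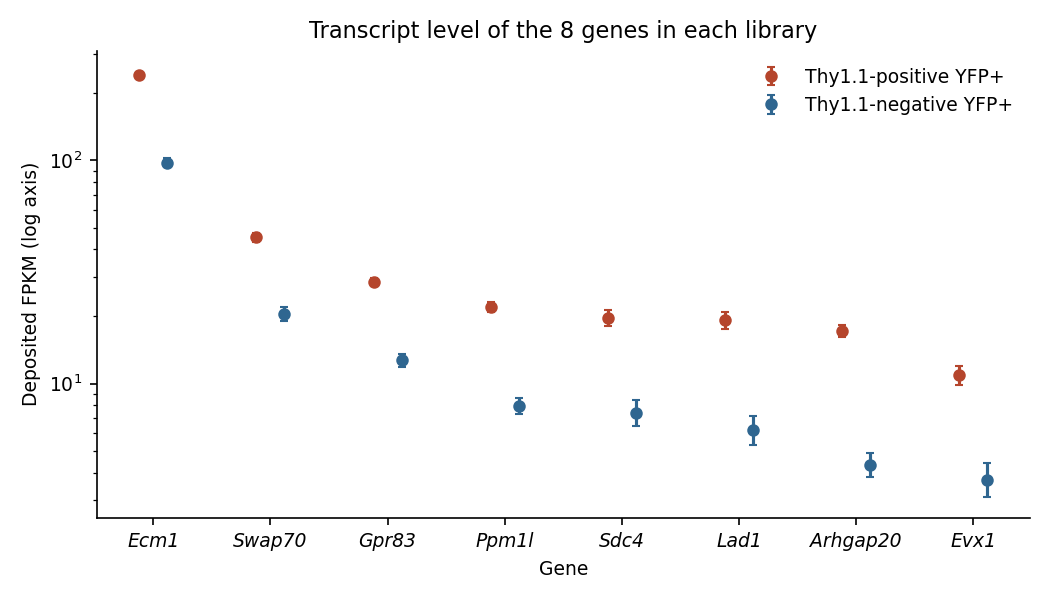
Deposited FPKM of each gene (log axis) in the Thy1.1+ (red) and Thy1.1- (blue) YFP+ library, 1 library each; bars are 95% Poisson intervals of the reads and cover counting error only. Ecm1 stands highest in both libraries, at 241 and 97.5 FPKM, and the order of the genes is the same in both.

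The ratio between the libraries varied among the genes by more than counting error. Arhgap20 had the highest ratio, 3.98 (3.46 to 4.59), from 1003 reads in the Thy1.1+ and 251 in the Thy1.1- library. Its interval lay above those of Ecm1, Gpr83, Swap70, Sdc4 and Ppm1l and overlapped those of Lad1 and Evx1. Lad1 had a ratio of 3.11 (2.63 to 3.70), from 559 against 179 reads. Evx1, with the fewest reads, 396 against 135, had a ratio of 2.92 (2.40 to 3.58). Ppm1l had a ratio of 2.76 (2.50 to 3.06), from 1443 against 521 reads. The ratio of Sdc4 was 2.67 (2.29 to 3.13), from 598 against 223 reads. Ecm1, with 4299 against 1731 reads, had the narrowest interval, 2.34 to 2.62 around a ratio of 2.47. Gpr83 had a ratio of 2.25 (2.07 to 2.44), from 1909 against 847 reads, and Swap70 the lowest, 2.19 (2.01 to 2.39), from 1693 against 770 reads.

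**Figure D2:**
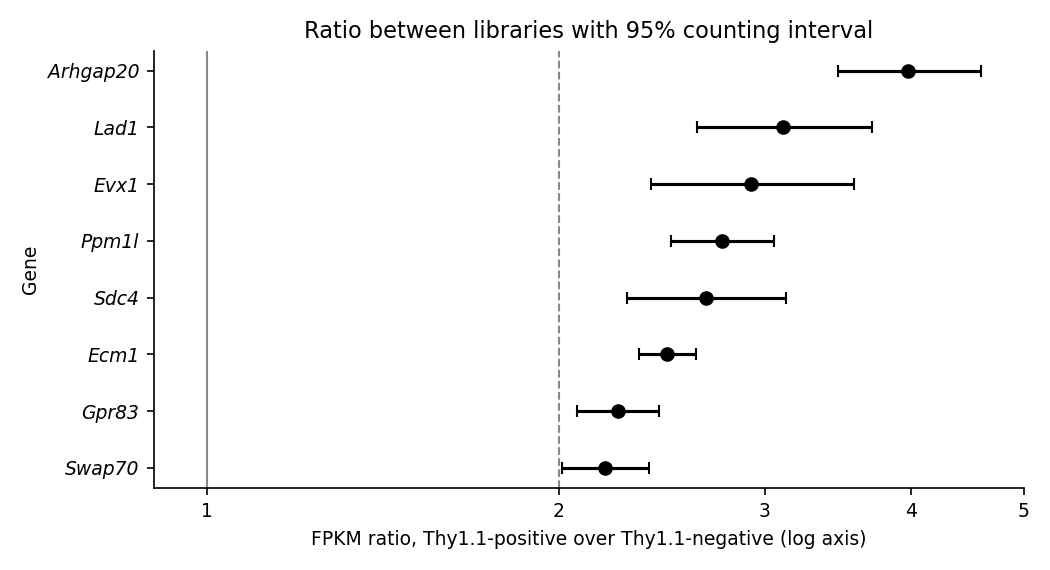
FPKM ratio of the Thy1.1+ over the Thy1.1- library for each gene (log axis), with 95% counting intervals; the solid line marks equal levels and the dashed line a ratio of 2. Ratios run from 2.19 for Swap70 to 3.98 for Arhgap20, and the intervals of those 2 do not overlap.

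Differences over many genes are given as log2(FPKM + 1), Thy1.1+ minus Thy1.1-, where 1 stands for 2-fold. The added 1 shrinks the difference of genes with low values. On this scale the 8 genes ran from 1.09 for Swap70 to 1.77 for Arhgap20, with a median of 1.32 beside -0.03 over all 12820 genes. All 8 are past 2-fold because they were chosen so, against 1.15% of all genes and 0.544% of protein-coding genes in that direction. In either direction, 3.08% of all genes and 2.33% of protein-coding genes were past 2-fold, and 1.93% and 1.78% were 2-fold lower in the Thy1.1+ library. At a mean of at least 5 FPKM, 33 of 8285 protein-coding genes were past 2-fold in that direction, and these 8 are part of those 33. Arhgap20 was 2nd among them, Lad1 4th, Ppm1l 5th, and Gpr83 and Swap70 21st and 22nd. The genes just over the threshold were Prickle1 at 1.02, Orm2 at 1.01 and Slc35d1 at 1.01, and those just under it were Cerk at 0.997, Src at 0.994 and Pmepa1 at 0.954.

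Receptors other than Gpr83 mostly differed little between the libraries, as did most genes. Other orphan and lipid receptors of lymphocytes with a mean of at least 1 FPKM numbered 25. Of these, none was at least 2-fold higher among Thy1.1+ cells and 1 was 2-fold lower, beside 1.15% and 1.93% of all genes. Their median was -0.05. Gpr34, a lysophosphatidylserine receptor, came closest to Gpr83 at 5.26 against 2.76 FPKM, and P2ry14, a receptor for UDP-glucose, followed at 1.49 against 0.840 FPKM. At the other end were Gpr15, a homing receptor of T cells in the colon, at 3.42 against 10.5 FPKM, and Gpr155 at 6.93 against 12.3 FPKM. The peptide PEN, cut from the precursor that Pcsk1n encodes, has been proposed as a ligand of Gpr83, and Pcsk1n had 1 read in the Thy1.1+ and 4 in the Thy1.1- library. Gpr171, the receptor for another peptide of the same precursor, stood at 5.68 against 9.46 FPKM, the lowest difference among 19 measured genes of peptide supply and G protein signalling. None of those 19 was past 2-fold in either direction, and their median was -0.12, with Gnas at 0.40 and Cpe at 0.37 highest and the arrestin Arrb2 at -0.52 next to Gpr171 at the low end.

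Def6, the paralogue of Swap70 in T cells, had the higher level of the pair at 127 against 133 FPKM, a ratio of 0.958 (0.911 to 1.01) that included 1. Of 10 known partners of Swap70 and Def6, 1 lay above 0 and 9 below, beside 44.9% of all genes above 0. None was past 2-fold, beside 3.08% of all genes, and the median was -0.21. Centred on the median gene, 2 lay above 0 and 8 below. Irf4, a transcription factor that Def6 is described to bind, was lowest at 17.3 against 27.4 FPKM, and Rac2 next at 210 against 298 FPKM, while Rock2 at 14.9 against 14.4 FPKM and Irf8 at 18.0 against 18.5 FPKM were at the high end.

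Ecm1 was the most abundant of the secreted matrix genes and not the only one past 2-fold. Of 47 such genes in the table, 14 had a mean of at least 1 FPKM. Among the 13 others, 1 was 2-fold higher, none was 2-fold lower and the median was 0.13, beside 1.15%, 1.93% and -0.03 over all genes. Lama5, a laminin chain of basement membranes, was that gene, at 4.23 against 1.60 FPKM, and its ratio was 2.64 (2.08 to 3.37). Crim1, a membrane-bound binder of bone morphogenetic proteins, followed at 22.9 against 13.8 FPKM, and Col1a1 at 0.694 against 1.73 FPKM and Mfge8 at 5.30 against 7.45 FPKM were lowest. Of molecules through which ECM1 is described to act in T cells, Il2rb, which encodes CD122, was highest at 575 against 419 FPKM and Klf2 next at 130 against 106 FPKM. Itgb3, the integrin beta 3 chain, was 2-fold lower in the Thy1.1+ library at 4.36 against 10.6 FPKM, a ratio of 0.410 (0.365 to 0.460), and Mmp9 stood at 1.95 against 3.12 FPKM. S1pr1, the receptor that guides exit from lymph nodes, stood at 134 against 148 FPKM.

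Sdc4 was the most abundant syndecan in the Thy1.1+ library, at 19.7 FPKM beside 13.7 FPKM for Sdc3, while Sdc3 was the higher of the pair in the Thy1.1- library, at 10.6 FPKM beside 7.39 FPKM. The 22 other measured genes of heparan sulfate proteoglycans and their synthesis held none past 2-fold in either direction, beside 3.08% of all genes. Their median was 0.03, with 11 above 0 and 11 below. Sdc3 stood at 13.7 against 10.6 FPKM, a ratio of 1.29 (1.12 to 1.499), and Sdc1, the syndecan of plasma cells, at 2.06 against 3.51 FPKM, a ratio of 0.587 (0.414 to 0.826). Sdc2 had 4 reads in the Thy1.1+ and 6 in the Thy1.1- library. Sdc3 thus leaned the way of Sdc4, and Sdc1 the other way. Hs6st1, a heparan sulfate sulfotransferase, came after Sdc3 at 22.1 against 18.2 FPKM, and Srgn, the granule proteoglycan serglycin, was low beside Sdc1 at 705 against 996 FPKM. Of 12 measured partners and sheddases of syndecan-4, 2 lay above 0 and 10 below, beside 44.9% of all genes above 0, and none was past 2-fold, with a median of -0.12. Ptprj at 0.29 and Prkca at 0.23 were highest, and Sdcbp2 at -0.63 and Mmp9 at -0.48 lowest.

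Lad1 was detected in T cell libraries in which several hemidesmosome genes of skin were near 0. Of the 12 other genes of its list, 6 had a mean of at least 1 FPKM. None of the 6 was past 2-fold, beside 3.08% of all genes, and their median was 0.07. Dst at 29.7 against 22.5 FPKM and Itga6 at 123 against 107 FPKM were highest, and Plec at 39.1 against 41.7 FPKM and Col7a1 at 1.18 against 1.26 FPKM lowest. Col17a1, the hemidesmosomal collagen, stood at 0.812 against 0.514 FPKM and Itgb4 at 0.211 against 0.437 FPKM. Keratinocyte keratins were at or near 0: Krt5 was listed at 0 in the Thy1.1+ library, and Krt14 had 1 read there and 3 in the Thy1.1- library. Epcam, at 6.64 against 4.18 FPKM, was the only epithelial marker with a mean of at least 1 FPKM. The 8 epithelial markers, mostly Epcam, summed to 7.54 against 5.39 FPKM, with 3 of 8 higher in the Thy1.1+ library and 5 lower. Cldn4, counted as lower, had equal reads in both libraries.

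Ppm1l had a relative that leaned the same way. Ppm1b, a PP2C phosphatase that acts on TAK1, stood at 137 against 77.2 FPKM, a ratio of 1.78 (1.70 to 1.86) that stayed under 2-fold. Of the 16 other PP2C phosphatases measured, none was past 2-fold, beside 3.08% of all genes, and the median was -0.02. Phlpp1, a phosphatase of Akt, followed Ppm1b at 89.2 against 66.4 FPKM, while Ppm1a was level at 42.8 against 42.4 FPKM. Ppm1d at 23.0 against 35.4 FPKM and Phlpp2 at 3.92 against 5.01 FPKM were lowest. Of 14 measured stress kinases and adaptors described downstream of PP2C enzymes, none was past 2-fold, and 7 lay above 0 and 7 below, with a median of -0.02. Map3k7, which encodes TAK1, stood at 39.9 against 39.0 FPKM and Map3k5, which encodes ASK1, at 71.4 against 88.2 FPKM. Mapk9 at 0.44 and Map2k7 at 0.22 were highest, and Map2k3 at -0.53 was lowest.

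Evx1 was expressed while the HoxA genes beside it were near 0. Of 45 even-skipped and Hox cluster genes in the table, 3 had a mean of at least 1 FPKM: Evx1, Hoxb4 and Hoxb3. The 11 HoxA genes reached 0.359 FPKM at most in either library. Evx2, the paralogue at the HoxD cluster, had 2 reads in the Thy1.1+ and 5 in the Thy1.1- library. Hoxb4, a homeobox gene known from blood stem cells, stood at 10.2 against 3.76 FPKM, a ratio of 2.71 (2.27 to 3.23) from 486 against 179 reads. Hoxb3, beside it in the HoxB cluster, stood at 2.12 against 0.662 FPKM, a ratio of 3.20 (1.89 to 5.67) from 61 against 19 reads. Hoxb3 was under 1 FPKM in the Thy1.1- library, so it passed the mean of at least 1 FPKM only through the Thy1.1+ library. The ratio intervals of Hoxb4 and Hoxb3 hold the ratio of Evx1, 2.92. On the log2(FPKM + 1) scale Hoxb4 stood at 1.23 and Hoxb3, at its low level, at 0.91. Hoxb4 was also the protein-coding gene nearest to Evx1 when every gene was placed by its log2(FPKM + 1) in both libraries, at a Euclidean distance of 0.0887 over 2 libraries. That distance rests on the same FPKM values as the ratios.

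**Figure D3:**
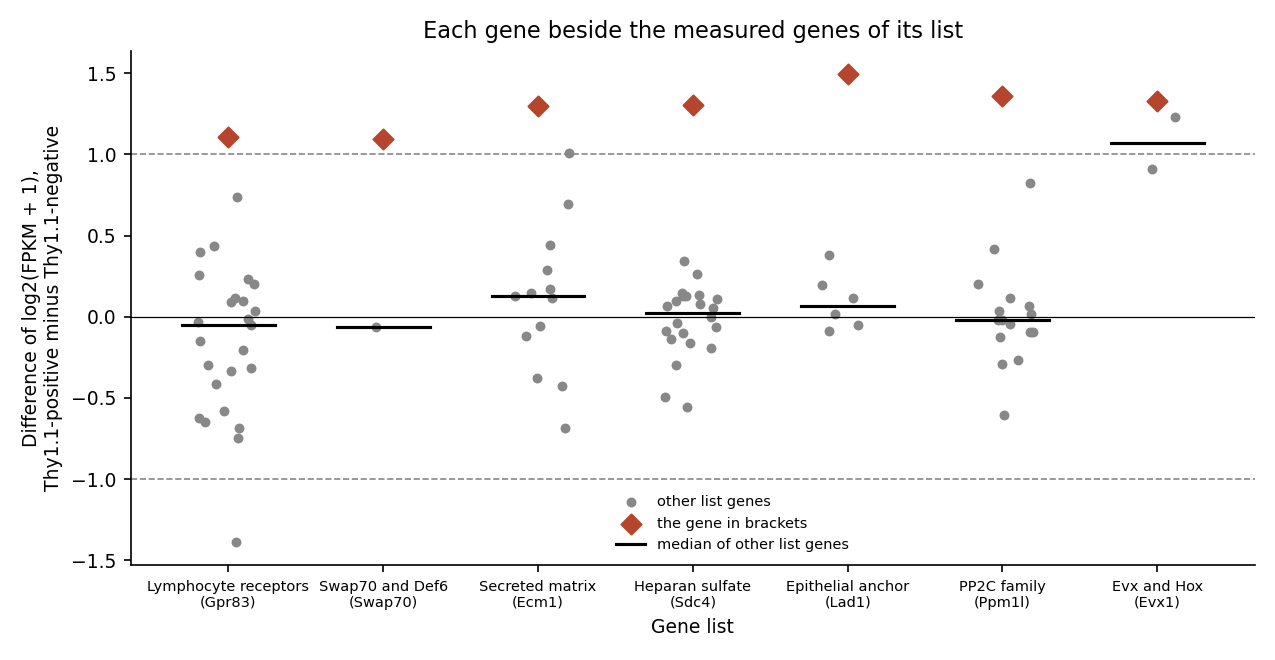
Difference of log2(FPKM + 1), Thy1.1+ minus Thy1.1-, for 7 of the 8 genes (red diamonds, Arhgap20 left out) and for the other genes of the list with a mean of at least 1 FPKM (grey points), with their median (black line); dashed lines mark 2-fold, and the sideways spread of points carries no meaning. The medians of other list genes lie between -0.06 and 0.13 except in the Evx and Hox list, where the only 2 other measured genes, Hoxb4 and Hoxb3, give 1.07. Hoxb3 passed the mean of at least 1 FPKM only through the Thy1.1+ library.

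Some of the 8 lay near each other in the plane of both libraries. With 2 libraries nearness measures only a like level and a like ratio. The 8 were chosen by that ratio, so nearness among them follows in part from the choice. Sdc4 and Ppm1l lay 0.174 apart, and Lad1 lay nearest to Sdc4, at 0.229. Ecm1 lay nearest to Il2ra, at 0.235, and next to Zfp36l1, at 0.459. Gpr83 lay nearest to Zfyve16 and Lmo4, and Swap70 to Ctsw, which encodes cathepsin W, and Zfp609. Arhgap20 lay nearest to Epas1, which encodes the hypoxia-inducible factor HIF-2α, at 0.372, and to Gata1, a transcription factor of red cells and megakaryocytes, at 0.394. The predicted genes Gm3739 and Gm3667, near Sdc4 and Evx1, stood at 18.4 against 7.43 FPKM and at 10.3 against 4.05 FPKM, and Dgat2 lay near Ppm1l. Beside Gata1, the erythroid and platelet markers used here summed to 16.0 against 10.5 FPKM, of which the integrin gene Itga2b made up 10.1 and 8.11 FPKM. Of the 7 markers, 5 were higher in the Thy1.1+ library, and only 2 had a mean of at least 1 FPKM. Over all genes with such a mean, 44.9% were higher there. Hbb-bs, a beta globin, was past 2-fold at 2.51 against 0.747 FPKM, from 27 against 8 reads, and Hba-a2, an alpha globin, had 12 against 1 reads. Ppbp, a platelet chemokine, was listed at 0 in the Thy1.1+ library. The part of these markers in the nearness was not tested.

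The genes next to the 8 on the chromosome were not used to choose them. Of the 16 protein-coding genes that flank them in the GENCODE M21 annotation, 10 had a mean of at least 1 FPKM. Of these, 7 lay above 0 and 3 below, 1 was past 2-fold higher and none past 2-fold lower, and the median was 0.14. Over all genes, 44.9% lay above 0 and 1.15% were past 2-fold higher, and of protein-coding genes alone 0.544% were past 2-fold higher. The flanking gene past 2-fold was Tnnt2, which encodes cardiac troponin T and follows Lad1 on the same strand. It stood at 6.73 against 1.75 FPKM, a ratio of 3.84 (2.71 to 5.56) from 158 against 41 reads, beside 3.11 for Lad1. Tnni1, on the other side of Lad1, had 1 read in the Thy1.1+ and 5 in the Thy1.1- library.

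The other flanking genes stayed well short of the genes they flank. Izumo1r, which encodes the Treg surface protein FR4 and lies next to Gpr83, stood at 566 against 508 FPKM, a ratio of 1.11 (1.08 to 1.15), and Mre11a on the other side at 18.8 against 19.6 FPKM. Adamtsl4 and Tars2, at the sides of Ecm1, stood at 11.8 against 8.03 FPKM and 37.8 against 30.2 FPKM. Beside Swap70, Sbf2 stood at 6.53 against 5.55 FPKM and Wee1 at 2.44 against 3.39 FPKM. Sys1 next to Sdc4 at 0.13, Hibadh next to Evx1 at 0.03 and Fdx1 next to Arhgap20 at -0.11 lay near 0 on the log2 scale. Both neighbours of Ppm1l, Arl14 and B3galnt1, and Rbpjl, 1810046K07Rik and Hoxa13 beside Sdc4, Arhgap20 and Evx1 were under a mean of 1 FPKM. With 3 protein-coding genes taken on each side, 29 of 48 were measured, 14 of the 29 lay above 0 and the median was -0.01. Of the 29, 2 were 2-fold higher and 1 was 2-fold lower, beside 0.544% and 1.78% of protein-coding genes. Besides Tnnt2 these were Zc3h12c, at 10.2 against 4.45 FPKM, and Pou2af1, at 0.566 against 5.19 FPKM, which lie near Arhgap20 and went in opposite directions.

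**Figure D4:**
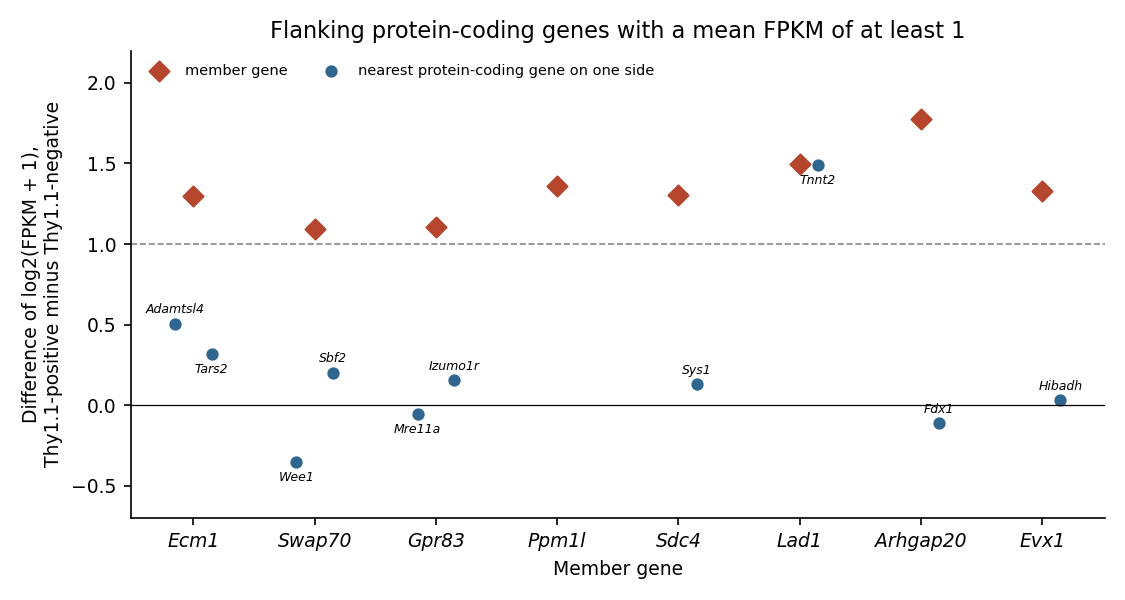
Difference of log2(FPKM + 1), Thy1.1+ minus Thy1.1-, for each of the 8 genes (red diamonds) and the nearest protein-coding gene on each side where its mean was at least 1 FPKM (blue points); the dashed line marks 2-fold. Tnnt2, at 1.49, lies level with Lad1, and the other 9 neighbours lie between -0.35 and 0.50.

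The annotation places other transcripts over 5 of the genes, and in 4 of these exons overlap. Arhgap20os, annotated on the opposite strand of Arhgap20 and sharing exon sequence with it, had 24 reads in the Thy1.1+ and 4 in the Thy1.1- library, beside 1003 and 251 for Arhgap20. Evx1os, opposite Evx1, had 26 and 18 reads beside 396 and 135. The labels do not state that reads were counted by strand, so reads from a gene and its antisense partner cannot be told apart. Gm45515, annotated opposite Swap70, was not analysed here, and Mir7014, a microRNA on the strand of Ecm1, was listed at 0 in both libraries. Ppm1l holds 3 pseudogenes on its opposite strand, outside its exons, with at most 14 reads each.

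Absolute levels depend on the length by which reads were divided. For 6 of the 8 genes, the length behind the deposited FPKM was within 1 base of the mean length of the annotated transcripts, so short annotated transcripts lower it. Ecm1, with 10 annotated transcripts, was divided by 958 bases, while its longest transcript has 1900. Divided by the longest transcript, Ecm1 stood at 122 FPKM in Thy1.1+ cells, still the highest of the 8. Ppm1l moved most, from 22.0 to 8.24 FPKM, since its longest transcript is 2.67 times the length used, and came to lie behind Sdc4 and Lad1. Swap70 moved from 45.1 to 22.6 FPKM and came to lie behind Gpr83, which moved from 28.6 to 24.1 FPKM. The plain FPKM ratios between the libraries are not touched by this choice, since the length is the same in both, but differences of log2(FPKM + 1) are. With all annotated exons as the length, Swap70 stood at 0.998, just short of 2-fold, Arhgap20 moved from 1.77 to 1.34 and Ppm1l from 1.36 to 1.19, and the other 5 stood between 1.08 and 1.36.

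**Figure D5:**
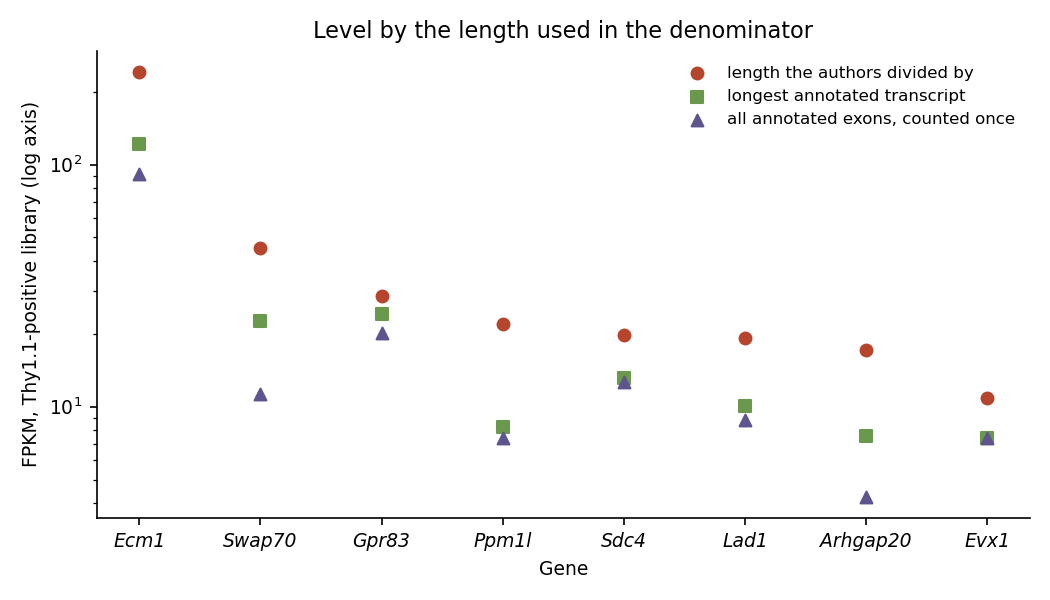
FPKM of each gene in the Thy1.1+ library (log axis) with the length the authors divided by (circles), the longest annotated transcript (squares) and all annotated exons counted once (triangles). Ecm1 stays highest with each length, while Swap70 lies above Gpr83 only with the length the authors used.

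The size of the differences depended on how the libraries were scaled. Rescaling by the upper quartile lowered the median of all genes from -0.03 to -0.25, and Gpr83 and Swap70 then stood at 0.86 and 0.84, short of 2-fold, with the other 6 past it. Over all genes, 148 were 2-fold higher and 247 lower as deposited, and 74 higher and 379 lower after that rescaling, under which Lama5 and Hoxb4 were no longer past 2-fold. With 5 in place of 1 added to each FPKM, Gpr83, Swap70, Sdc4 and Evx1 stood at 0.92, 0.97, 0.998 and 0.86.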

How the data were processed

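RNA-seq libraries were made with a NEBNext Ultra kit from total RNA of the sorted cells, 1 for each of 2 populations, per the labels' protocols. For every Ensembl gene the authors deposited an FPKM value in each. The letters P and N in its headers were taken to mean Thy1.1+ and Thy1.1-. HTSeq 0.6.1, TopHat2 2.0.12, Bowtie2 2.2.3 and the build mm9 appear in the submitters' processing notes; their settings and any use of strand were not given in the sources used here. Symbols, matched for 96.8% of IDs, gene order and lengths came from GENCODE M21, on another build, so only the RefSeq promoters carry coordinates.

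Whole reads were recovered from the FPKM values: in 23442 genes above 0 in both libraries, the ratio of the values is a ratio of whole numbers times 1 common factor of 0.997. Totals came from genes whose implied length equals their exon union, and each gene's multiple from the mean transcript length. For Swap70 and Ppm1l that length did not match, so their reads are less sure. The recovery was also run on simulated data in which each gene's length was its rounded mean transcript length, as the recovery assumes. Such data cannot check the reads of genes whose length did not match, Swap70 and Ppm1l among them. Ratio intervals are exact Clopper-Pearson intervals of the read share, and level intervals are exact Poisson intervals, at 95%; reads that share a PCR origin are not independent, and variation between animals is not covered. FPKM is not a count, so no count model was used.

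Genes were called at a difference of 1 in log2(FPKM + 1) and a mean of at least 1 FPKM. The named genes were the 8, the 2 highest and 2 lowest measured genes of each of 12 lists, further heparan sulfate genes past 2-fold, flanking genes, the 2 nearest genes by level and those next to the threshold. Evx2, Pcsk1n, Ppm1a, Sdc2, S1pr1, Map3k7, Col17a1, Itgb4, Zc3h12c and Pou2af1 were named after their values were seen. The members and lists were chosen with earlier results of these data known. Proteins were not analysed here, and some planned lists and 1 marker are not reported here. Python 3.11.15, pandas 2.3.3, scipy 1.17.1 and matplotlib 3.10.9 were used.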

Additional observations from a re-analysis of the deposited data

How the results depend on the processing

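None of the 64 alternative values of the 8 differences changed sign: 46 lay inside the counting interval of the main value and 18 outside. Another pseudocount or gene length cannot change a sign, and the genes were chosen at 2-fold or more, so the kept sign tests nothing. The range over 8 settings was 0.86 to 1.17 for Gpr83, 0.84 to 1.13 for Swap70, 1.04 to 1.33 for Ecm1, 0.998 to 1.42 for Sdc4, 1.12 to 1.64 for Lad1, 1.06 to 1.46 for Ppm1l, 1.25 to 1.99 for Arhgap20 and 0.86 to 1.55 for Evx1. The count of the 8 past 2-fold was 4 with a pseudocount of 5 and 6 after rescaling by the upper quartile, and 0 passed 4-fold. Over all genes, 148 were higher in the Thy1.1-positive library and 247 lower. These counts were 293 and 402 when the pseudocount was 0.1, 19 and 72 when it was 5, 74 and 379 by the upper quartile, 493 and 745 at 1.5-fold, 9 and 31 at 4-fold, 60 and 107 at a mean of at least 5 FPKM, and 305 and 459 with no pseudocount. Of 139 measured list genes that are not among the 8, 2 were higher and 2 lower. These became 0 and 0 with a pseudocount of 5, 0 and 2 by the upper quartile, 6 and 10 at 1.5-fold, 0 and 0 at 4-fold, and 1 and 2 at a mean of at least 5 FPKM. Those 4 kept their sign with both other pseudocounts, which cannot change it, and with all 4 rescalings. They were picked out as past 2-fold, so this too tests nothing. By the upper quartile, the medians of the heparan sulfate, matrix and anchoring lists turned to -0.20, -0.08 and -0.12, beside -0.25 over all genes. The settings with no pseudocount and with other gene lengths, and the 3 neighbours on each side, were chosen after seeing the data. No paired analysis was possible because each population has 1 library.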
